A study of Mus musculus with 16 samples.

Results

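The comparison is ozone against room air in the lungs of mice genetically deficient in adiponectin, a hormone made by fat cells. It rests on 8 of the 16 arrays of the series, chosen by their titles: 4 deficient mice that breathed room air and 4 that breathed 0.3 ppm ozone, an oxidant gas of polluted air, in both cases over 72 h. Each group held 2 males and 2 females, called M1, M2, F1 and F2 below, and all mice averaged 14 weeks of age. The other 8 arrays came from wildtype C57BL/6 mice under the same exposures and entered the statistical model for their spread. The labels give C57BL/6 as background for all mice, and deficiency as a genotype of the whole animal, so the ozone mice and the air mice compared here lack the same hormone and differ by label only in the air they breathed. The sources used here do not name the removed part of the gene, the mice's housing or the hour of harvest. Lungs were taken right at the end of exposure, and RNA came from the whole left lung after 24 h in RNAlater, so every value averages all cell types of the lung. Less RNA per cell and fewer cells of a type cannot be told apart in such tissue.

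Inhaled ozone reacts with the lipids and proteins of the airway lining and injures the epithelium of the small airways and the alveoli. Over days, surviving epithelial cells spread and divide to cover the gaps, macrophages take up debris, and cytokines such as interleukin-6 drive acute phase proteins and neutrophil recruitment. Adiponectin reaches the lung from the blood and is known to restrain inflammatory signalling in macrophages and vessels.

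Levels are log2 of the authors' normalized intensity, so a step of 1 is a doubling of signal, and a difference is ozone minus air on that scale ± its standard error from limma. The threshold for a call was an adjusted p (Benjamini-Hochberg) under 0.05 over 12393 genes. Of these, 1954 were called higher after ozone (15.8% of genes tested) and 1807 lower (14.6%). Without regard to the test, all 4 ozone arrays lay above all 4 air arrays for 15.4% of genes and below them for 13.3%. Most changes were small: 130 called genes rose and 45 fell by a factor of 2 or more, and the median difference of all genes was 0.012. Nothing in the labels says that mice of a group were kept apart, so the p-values measure the spread between these mice.

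Adipoq, the gene of adiponectin itself, was lower in the deficient mice as a whole, at 6.68 ± 0.90 against 8.48 ± 1.35 in wildtype mice (SD, n = 8 each; two-sided exact permutation p = 0.00420). Within the deficient mice its levels were 6.32, 6.43, 6.97 and 8.81 in air and 6.36, 6.14, 6.33 and 6.07 after ozone, with -0.91 between the group means (exact permutation p = 0.0857). The array air F2 stood high. In wildtype lung Adipoq was 7.19, 8.05, 11.52 and 8.89 in air and 7.70, 7.77, 7.96 and 8.76 after ozone, and the high array there, wildtype air F1, carried fat genes as well, with a mean level of 8.91 over the fat list against 6.80 to 7.46 on the other wildtype arrays. Between genotypes the Adipoq difference was -1.78 in air (exact permutation p = 0.143) and -1.82 after ozone (exact permutation p = 0.0286; groups of 4 cannot give a lower one). Where the probe set lies relative to the removed part of the gene is not known here, so its signal checks the labels only in part. The deficient array air F2 also carried fat genes: Cidec, which fuses lipid droplets in fat cells, was 6.13, 6.18, 5.91 and 8.54 in air and at most 5.60 after ozone, and Ucp1, the uncoupling protein of brown fat, was 4.75, 4.80, 4.75 and 7.27 in air and at most 4.95 after ozone. The array air M2 carried skeletal muscle and squamous epithelium instead. Acta1, skeletal muscle actin, was 5.81, 13.08, 6.12 and 6.02 in air, and Krt4, a keratin of the oesophagus and other squamous linings, was 5.76, 13.03, 5.64 and 5.89. The ozone arrays lay between 5.93 and 6.09 for Acta1 and between 5.84 and 6.11 for Krt4. Over whole marker lists, the mean level of 16 fat genes was 7.04, 7.54, 7.16 and 8.72 in air and 6.79, 6.73, 6.69 and 6.80 after ozone, and that of 21 skeletal muscle genes was 6.15, 9.52, 6.11 and 6.04 and 6.04, 6.08, 5.99 and 5.97. The 19 squamous genes averaged 5.59, 8.37, 5.57 and 5.49 and 5.84, 5.98, 5.92 and 6.04. The 14 heart muscle genes of pulmonary veins were also highest on air M2. They averaged 9.70, 10.51, 9.48 and 9.52 in air and 9.38, 9.41, 9.29 and 9.30 after ozone. Their median difference was -0.48, and -0.32 without air M2 and F2. Of 5 mesothelium genes 1 was called higher and 4 lower, and 2 were called lower without air M2 and F2. The median difference of the fat genes was -0.74 over all 8 arrays and -0.27 without air M2 and F2, and that of the skeletal muscle genes -0.94 and -0.021. The part of these tissues in other genes' differences was not tested, and the genes named below kept their call without both arrays unless a sentence says otherwise.

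**Figure D1:**
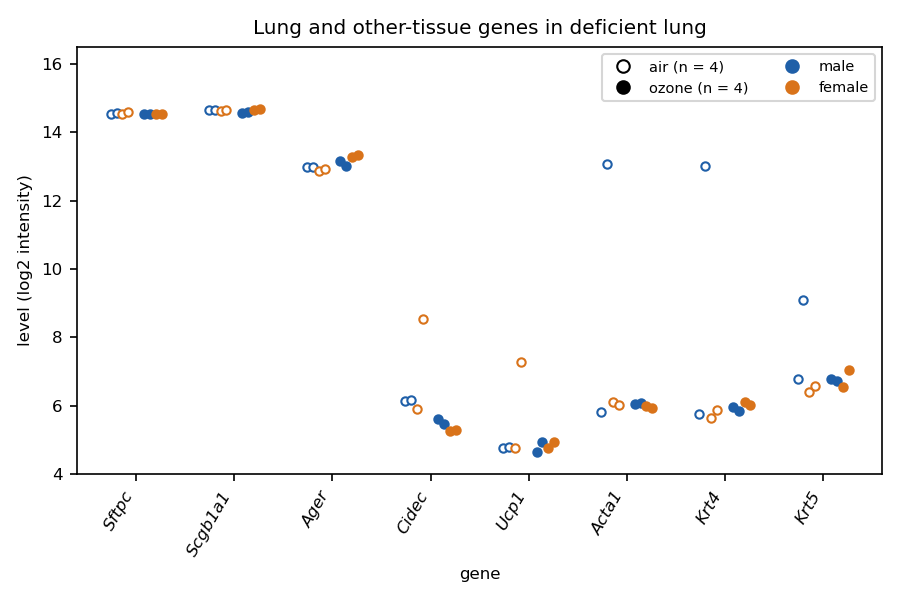
Level (log2 intensity, vertical axis) of lung genes and of fat, muscle and squamous marker genes (horizontal axis) on the 8 deficient arrays, with open circles for air and filled circles for ozone. Blue stands for males and orange for females. Sftpc and Scgb1a1 overlap between groups, air F2 alone is high for Cidec and Ucp1, and air M2 alone is high for Acta1 and Krt4.

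The lung genes themselves were at the top of the scale on every array. Sftpc, the surfactant protein of alveolar type 2 cells, lay between 14.54 and 14.59 on the 8 arrays, and Scgb1a1, the main secretory protein of club cells, between 14.57 and 14.68. At that brightness a probe set may show little of a change. A second probe set of Sftpc differed by 0.45 (adjusted p = 0.0464). It lay near the bottom of the scale, at a mean level of 4.72, so it does not show whether the bright signal hid a change. Of 14 lung identity genes, 6 rose and 0 fell. The largest rise was that of Foxf1, a transcription factor of lung mesenchyme, by 1.13 ± 0.16 (adjusted p = 9.99e-05).

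Cell division genes were numerous among the largest rises: of the 15 largest among genes that were called without overlap and kept their call and size when arrays were left out, 10 belonged to the lists of mitosis and DNA replication, while the first 3 were Saa3, Timp1 and Tnc. Sprr1a, a small proline-rich protein of stressed and squamous epithelium, rose as far (2.96 ± 0.65, adjusted p = 0.00282) but was kept out by overlap, at 5.53, 9.36, 5.42 and 5.22 in air and 8.80, 9.31, 9.68 and 9.57 after ozone; its high air value was on air M2, the array with squamous genes, and it is named here after its values were seen. Of 30 genes of the mitotic spindle and division, 29 rose and 0 fell, with a median difference of 1.72, and of 26 genes of DNA replication and nucleotide synthesis 23 rose and 0 fell, with a median of 0.78. The exceptions were Cenpe (0.22, adjusted p = 0.0538) in the first list and Tyms, Pola1 and Orc6 in the second. Birc5, the mitotic and survival protein survivin, had the smallest p of these genes: its levels were 5.39, 5.24, 5.36 and 5.43 in air and 8.49, 8.12, 8.22 and 8.40 after ozone. Every ozone array lay more than 2 units above every air array, a 7.73-fold rise (2.95 ± 0.10, n = 4 per group, adjusted p = 1.87e-10). Cdk1, the kinase that drives cells into mitosis, was 6.58, 6.78, 6.33 and 6.58 in air and 9.53, 9.36, 9.04 and 9.62 after ozone. Mki67, the proliferation antigen Ki-67, was 6.75, 6.52, 6.83 and 6.63 in air and 9.20, 9.28, 9.18 and 9.91 after ozone. In both genes the groups were far apart, and ozone F2 was the highest array. The rises were 2.82 ± 0.14 for Cdk1 (adjusted p = 3.61e-09) and 2.71 ± 0.14 for Mki67 (adjusted p = 9.32e-09).

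The other division genes among the 15 largest rises were Cep55, a protein of the last step of cell separation (2.79 ± 0.11), Top2a, which untangles DNA (2.75 ± 0.11), Cdc20 and Ube2c, which switch on the destruction of mitotic proteins (2.67 ± 0.15 and 2.61 ± 0.12), Ect2, which places the cleavage furrow (2.47 ± 0.14), Ccna2, cyclin A2 (2.41 ± 0.15), and Pbk, a mitotic kinase (2.35 ± 0.17). On the replication side, Rrm2, the regulated subunit of ribonucleotide reductase, was 6.29, 6.14, 6.45 and 6.32 in air and 9.27, 9.28, 8.83 and 9.16 after ozone. It rose 7.15-fold on average. Uhrf1, which carries DNA methylation through replication, Mcm5, a subunit of the replicative helicase, and Tk1, a thymidine kinase, rose by 2.29 ± 0.12, 2.28 ± 0.11 and 2.20 ± 0.098. The rise of Rrm2 and Mcm5 was 3.06 and 2.46 between the male arrays and 2.61 and 2.09 between the female arrays.

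The promoters of these genes are shown because the genes moved together and the mitotic ones share short words in front of their start. Promoter windows of 250 bases before and 50 after the start were taken from RefSeq (build GRCm38.p6), which held 29 windows for 26 of the 30 mitotic genes. The word CCAAT, or ATTGG on the other strand, was in 72.4% of the mitotic windows and in 37.4% of all 32851 windows of the table. The word TTTGAA, or TTCAAA, was in 79.3% and 17.9%, and both words were in 65.5% and 6.95%. The replication genes differed from the mitotic ones in the second word: of 28 windows of 23 genes, 64.3% held the first word, 10.7% the second and 7.14% both. As background, CCAAT is the word read by the factor NF-Y and TTTGAA the core of the cell cycle homology element of late cell cycle genes. A match here is a description of letters and not of binding. Copies on either strand were each counted, also where they overlapped. The windows of Cdk1 (chr10:69352863-69353162, minus strand), Cdc20 (chr4:118437294-118437593, minus strand), Ube2c (chr2:164769679-164769978, plus strand) and Rrm2 (chr12:24708004-24708303, plus strand) follow, 5′ to 3′ on the gene's strand, with both words in capitals.
Cdk1: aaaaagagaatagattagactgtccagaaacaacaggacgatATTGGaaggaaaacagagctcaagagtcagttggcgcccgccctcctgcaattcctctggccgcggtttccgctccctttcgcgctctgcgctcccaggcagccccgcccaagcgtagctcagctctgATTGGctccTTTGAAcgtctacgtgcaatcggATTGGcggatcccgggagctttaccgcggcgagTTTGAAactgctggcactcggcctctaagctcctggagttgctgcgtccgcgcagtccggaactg
Cdc20: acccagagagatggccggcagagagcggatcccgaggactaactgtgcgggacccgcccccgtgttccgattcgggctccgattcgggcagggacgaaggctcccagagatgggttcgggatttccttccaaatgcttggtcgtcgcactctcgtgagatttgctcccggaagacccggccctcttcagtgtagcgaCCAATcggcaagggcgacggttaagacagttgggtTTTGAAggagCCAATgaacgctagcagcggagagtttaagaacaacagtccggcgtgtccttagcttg
Ube2c: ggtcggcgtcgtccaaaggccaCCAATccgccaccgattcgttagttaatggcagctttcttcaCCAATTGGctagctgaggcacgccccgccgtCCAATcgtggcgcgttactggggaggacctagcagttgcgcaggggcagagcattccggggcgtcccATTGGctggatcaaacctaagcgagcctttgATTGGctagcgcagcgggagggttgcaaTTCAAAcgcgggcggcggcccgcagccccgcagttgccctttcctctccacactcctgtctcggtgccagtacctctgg
Rrm2: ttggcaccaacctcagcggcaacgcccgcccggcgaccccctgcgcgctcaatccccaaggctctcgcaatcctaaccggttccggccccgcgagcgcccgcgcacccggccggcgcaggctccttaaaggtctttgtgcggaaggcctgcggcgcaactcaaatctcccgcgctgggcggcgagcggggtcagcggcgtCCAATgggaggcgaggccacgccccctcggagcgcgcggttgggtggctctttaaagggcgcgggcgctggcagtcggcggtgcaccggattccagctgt
Cdk1 held 3 copies of the first word and 2 of the second, Cdc20 2 and 1, Ube2c 6 and 1, and the replication gene Rrm2 1 and 0. The copy of the second word nearest to the start began 15 bases before it in Cdk1, 18 in Cdc20 and 29 in Ube2c. Birc5, the largest rise of the mitotic list, held neither word in its window.

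Genes that govern entry into the cycle moved less. Of 24 cyclins, kinase inhibitors and E2F factors 11 rose and 3 fell. Ccnd1, cyclin D1, rose by 0.69 ± 0.080, and the E-type cyclins Ccne1 and Ccne2 by 0.62 ± 0.12 and 0.74 ± 0.12. Cdkn1a, the kinase inhibitor p21, was 8.84, 9.53, 8.89 and 8.65 in air and 9.79, 10.03, 10.28 and 10.37 after ozone. It rose by 1.14 ± 0.19, with air M2 the highest of the air arrays. Cdkn1c, the kinase inhibitor p57, went the other way, at 9.17, 9.19, 8.97 and 8.78 in air and 8.58, 8.73, 8.38 and 8.21 after ozone, a fall of 0.55 ± 0.074. The count of falls in that list was 5 without ozone M1. Of 15 p53 target genes, a list that holds Cdkn1a, 5 rose and 5 fell: Bbc3, a trigger of cell death, rose by 0.38 ± 0.073, while Trp53inp1 and Sesn1, both brakes on growth, fell by 0.63 ± 0.14 and 0.53 ± 0.063. The count of falls there was 2 without ozone F1 or ozone F2, and 3 without air M1, air M2, air F2, ozone M2 or both air M2 and air F2.

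**Figure D2:**
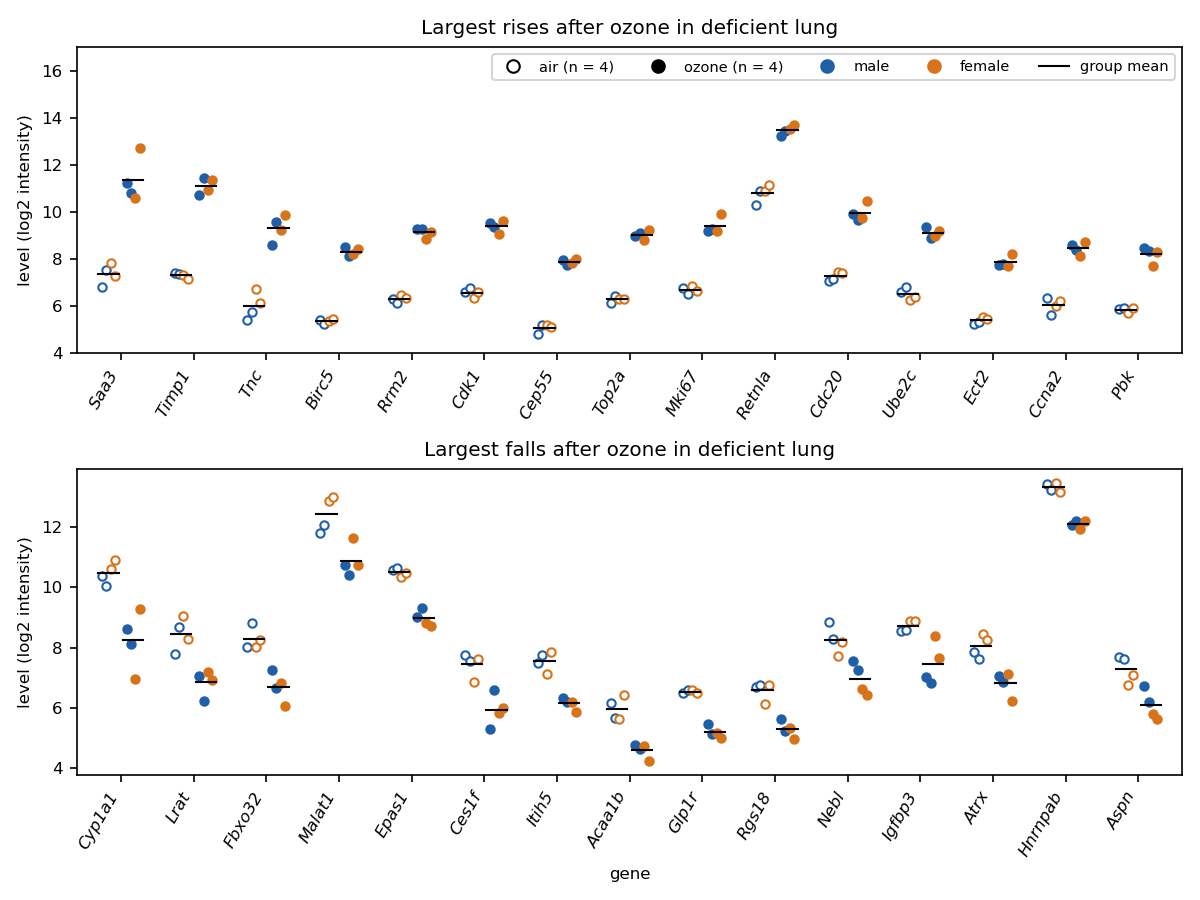
Level (log2 intensity, vertical axis) of the 15 largest rises and the 15 largest falls named by the rule (horizontal axis) on the 8 deficient arrays, with open circles for air, filled circles for ozone, blue for males, orange for females and a bar at each group's mean. By the rule the groups do not overlap, and Saa3, Timp1 and Tnc have the largest differences of means.

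The largest single rise belonged to Saa3, an acute phase protein made by macrophages and epithelium. Its levels were 6.80, 7.51, 7.81 and 7.25 in air and 11.23, 10.79, 10.59 and 12.73 after ozone. Ozone F2 stood above the other ozone arrays, and the lowest ozone array was still above the highest air array by more than 2 units. The rise was 15.9-fold (3.99 ± 0.34, adjusted p = 9.96e-07). Of 23 acute phase genes 11 rose and 0 fell, with a median difference of 0.36. Lrg1, a leucine-rich glycoprotein of inflamed tissue, was 9.43, 9.54, 10.06 and 10.57 in air and 12.52, 12.38, 11.69 and 11.92 after ozone. Lcn2, which binds bacterial iron carriers, was 10.10, 10.20, 10.51 and 10.96 in air and 12.44, 12.39, 11.65 and 12.47 after ozone. For both, the air arrays of the females lay above those of the males, and the rise was 2.97 for Lrg1 and 2.27 for Lcn2 between the male arrays and 1.49 and 1.32 between the female arrays. Over all arrays it was 2.23 ± 0.25 and 1.80 ± 0.22. Serpina3n, a protease inhibitor, rose by 1.92 ± 0.13, and Cp, the copper oxidase ceruloplasmin, by 0.91 ± 0.095, although 1 of the probe sets of Cp was called the other way. The liver proteins Crp and Apcs of the same list did not pass, at -0.046 and -0.038.

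Interleukin-6 signals through the receptor chain gp130 and the factor STAT3, which in turn raises its own brake, SOCS3. Il6 was near the bottom of the scale, at 4.29, 4.42, 4.43 and 4.42 in air and 5.08, 4.96, 4.94 and 6.21 after ozone. The ozone arrays were all above the air arrays, and ozone F2 stood alone at the top. The rise was 0.90 ± 0.19 (adjusted p = 0.00225), and 0.62 without that array (adjusted p = 0.000260). Lif, also a ligand of gp130, was 5.32, 5.22, 5.56 and 5.43 in air and 5.80, 5.82, 5.98 and 6.58 after ozone, again with ozone F2 highest, and rose by 0.66 ± 0.098. Il11, another such ligand, differed by 0.26 ± 0.087 (adjusted p = 0.0363), a call that single arrays decided: the adjusted p was 0.0847 without air M2, 0.0680 without air F1, 0.0696 without air F2, 0.130 without ozone M2, 0.0919 without ozone F2 and 0.179 without both air M2 and air F2. Among the receptors, Osmr, the chain for oncostatin M, rose by 0.44 ± 0.099, while Il6ra and Lifr fell, by 0.85 ± 0.13 and 0.72 ± 0.13. Below the receptor, Stat3 rose by 0.66 ± 0.091 and Socs3 was 8.50, 8.16, 8.86 and 8.94 in air and 9.21, 10.19, 9.60 and 10.16 after ozone, a rise of 1.18 ± 0.20 without overlap. Cebpb, a factor of acute phase promoters, and Bcl3, a partner of NF-kB, rose by 1.27 ± 0.17 and 0.91 ± 0.15. Of 18 genes of the family 10 rose and 2 fell.

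**Figure D3:**
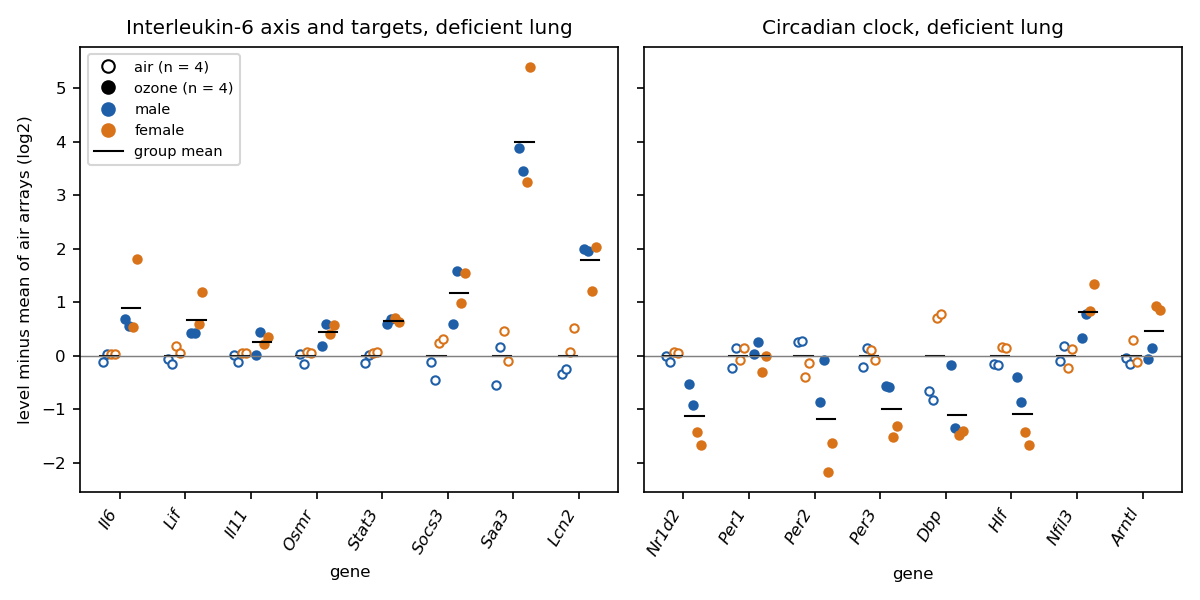
Level minus the mean of the 4 air arrays (log2, vertical axis) of genes of the interleukin-6 axis (left) and of the circadian clock (right) on the 8 deficient arrays, with open circles for air, filled circles for ozone, blue for males, orange for females and a bar at each group's mean. Socs3, Stat3 and Lif are higher on all ozone arrays. Per3 is lower in females than in males after ozone, and Dbp is higher in females in air, although the difference between sexes was called for 0 genes.

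Other inflammatory signals were uneven. Il33, an alarm cytokine stored in epithelial nuclei, was 10.11, 10.17, 10.17 and 10.40 in air and 11.44, 11.72, 10.88 and 11.30 after ozone, a rise of 1.12 ± 0.15 that was 1.44 in males and 0.81 in females. Il1b, at 7.17, 7.60, 7.73 and 7.89 in air and 8.23, 7.73, 7.88 and 8.96 after ozone, and Tnf, at 5.99, 6.06, 5.82 and 5.88 in air and 5.93, 6.17, 6.16 and 6.36 after ozone, overlapped between groups and did not pass (adjusted p = 0.266 and 0.0680). For Tnf the adjusted p was 0.0424 without air M2 and 0.0120 without ozone M1. Of 21 genes of the IL-1, TNF and NF-kB system 9 rose and 2 fell. Relb, an NF-kB subunit, rose by 0.81 ± 0.13, and Il1r1, the IL-1 receptor, by 0.53 ± 0.075. The falls numbered 0 without both air M2 and air F2, and 1 without ozone M2 or ozone F2. Il17a, a cytokine that draws neutrophils, lay between 5.72 and 5.91 on all 8 arrays, with a difference of -0.0003 ± 0.056.

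Among the chemokines, those that draw type 2 helper cells rose most. Ccl17 was 7.47, 7.29, 7.33 and 7.52 in air and 8.73, 9.75, 9.43 and 9.71 after ozone, a rise of about 4-fold (2.001 ± 0.24, adjusted p = 3.08e-05), and Ccl22, which shares its receptor, was 7.10, 6.89, 6.92 and 7.17 in air and 7.83, 8.18, 8.49 and 8.16 after ozone, a rise of 1.14 ± 0.12. No air array reached the lowest ozone array for either gene. The monocyte chemokine Ccl2 rose by 0.58 ± 0.10 and Ccl8 by 0.61 ± 0.17. Of 27 CC chemokines and receptors 8 rose and 1 fell, and the count of rises was 5 without air F1 or ozone F2. The falls of that list numbered 2 without air M2 or both air M2 and air F2, and 3 without ozone M1. Of the neutrophil chemokines, Cxcl1 was 5.10, 5.27, 5.10 and 4.80 in air and 5.85, 5.69, 5.71 and 6.69 after ozone, a rise of 0.92 ± 0.19 (adjusted p = 0.00227). Ozone F2 was the highest, and the rise was 0.69 without it (adjusted p = 0.00463). Cxcl5 was 4.32, 4.36, 4.47 and 4.26 in air and 4.50, 4.68, 4.84 and 6.05 after ozone. Ozone F2 stood far above the rest: the difference was 0.66 ± 0.21 (adjusted p = 0.0293) with that array and 0.33 without it (adjusted p = 0.0116), and the adjusted p was 0.0578 without air F1, 0.0844 without air F2 and 0.113 without both air M2 and air F2. Cxcl2 did not pass, at 0.18 ± 0.12. The platelet chemokines fell: Ppbp was 10.04, 10.18, 9.37 and 9.77 in air and 9.34, 8.91, 8.75 and 8.20 after ozone, a fall of 1.04 ± 0.23, and Pf4 fell by 0.55 ± 0.12.

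No neutrophil gene was called. Of 17, limma called 0, also 0 at an unadjusted p under 0.05, and the calprotectin genes S100a8 and S100a9 overlapped between the groups, at 9.73, 11.21, 10.61 and 11.26 in air and 10.84, 10.82, 10.48 and 11.60 after ozone for S100a8. The air arrays of S100a8 spanned more than 1 unit, and its difference was 0.23 ± 0.72, a standard error too wide to show a change of the size seen in most called genes. Macrophage genes moved both ways, with 7 higher and 6 lower of 27. Ctsk, a collagen-degrading cathepsin, was 8.25, 8.17, 8.29 and 8.16 in air and 9.58, 9.72, 8.63 and 9.22 after ozone, a rise of 1.07 ± 0.15. Cd14, the lipopolysaccharide co-receptor, and Lgals3, galectin-3, rose by 0.91 ± 0.15 and 0.58 ± 0.11. Siglecf, a surface lectin of resident alveolar macrophages and eosinophils, went down, at 6.73, 6.41, 6.71 and 6.52 in air and 6.03, 5.78, 5.80 and 5.66 after ozone, by 0.78 ± 0.16. Marco, the scavenger receptor, overlapped (0.33 ± 0.22), and Cd68 missed the threshold (0.63 ± 0.23, adjusted p = 0.0521) but passed at 0.0208 without air F2 and 0.0454 without ozone M2. The falls among macrophage genes numbered 2 without air F2, the array that carried fat genes, and 3 without ozone F2 or both air M2 and air F2. The part of fat tissue in these falls was not tested.

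Retnla, a secreted protein of alternatively activated macrophages and airway epithelium, was bright on every array, at 10.27, 10.86, 10.89 and 11.12 in air and 13.24, 13.44, 13.52 and 13.68 after ozone. All ozone arrays exceeded 13 and none of the air arrays reached 12, a 6.43-fold rise (2.69 ± 0.16, adjusted p = 3.46e-08). Of 27 genes of alternative activation and type 2 immunity 8 rose and 2 fell. Chil1, a chitinase-like protein, rose by 0.70 ± 0.11, while its relative Chil3 overlapped (0.26 ± 0.19). Arg1, arginase 1, was 5.33, 6.99, 5.41 and 5.47 in air and 5.53, 6.19, 5.70 and 6.55 after ozone. Its value on air M2 was the highest of the 8, the difference was 0.19 ± 0.33 over all arrays (adjusted p = 0.711), and without air M2 it was 0.64 (adjusted p = 0.0377). The cytokines Il4, Il5 and Il13 themselves differed by 0.035, 0.064 and 0.14, none called.

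Interferon genes showed no common direction, and few MHC class II genes passed. Of 30 interferon-stimulated genes 4 rose and 4 fell, near the background of all genes. Ifit2, an interferon-induced RNA-binding protein, fell by 0.74 ± 0.14, and Psmb8, a subunit of the immunoproteasome, rose by 0.50 ± 0.12. The count of falls was 1 without air M1, air F1, ozone M2 or ozone F2, and 7 without ozone F1, and the count of rises was 2 without air M1, air M2, air F2, ozone M1, ozone F1 or both air M2 and air F2. Of 17 MHC class II genes 3 rose and 0 fell, where 15.8% of all genes rose: H2-Ab1, a class II chain, by 0.43 ± 0.13 (adjusted p = 0.0223, but 0.0673 without air M1, 0.0594 without ozone M1, 0.0818 without ozone F1 and 0.0700 without both air M2 and air F2), Ifi30, a thiol reductase of antigen processing, by 0.25 ± 0.085 (adjusted p = 0.0368, but 0.105 without air M1, 0.106 without air M2, 0.119 without ozone M1, 0.0558 without ozone M2, 0.0671 without ozone F2 and 0.0795 without both air M2 and air F2), and Batf3, a factor of cross-presenting dendritic cells, which was 6.42, 6.20, 6.32 and 6.52 in air and 6.75, 7.11, 6.94 and 7.40 after ozone and rose by 0.69 ± 0.12. The rises numbered 1 without air M1, ozone M1 or both air M2 and air F2. Complement genes gave 6 rises and 0 falls of 20. Clu, the chaperone clusterin, rose by 1.20 ± 0.097 and Cfb, complement factor B, by 0.58 ± 0.093. The count of rises was 3 without ozone M1 or ozone F2.

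Genes of the lung matrix rose in number, led by an inhibitor of proteases and a wound protein. Timp1, an inhibitor of matrix metalloproteinases, was 7.42, 7.35, 7.32 and 7.16 in air and 10.71, 11.42, 10.91 and 11.37 after ozone. Each ozone array was more than 3 units above each air array, a 13.8-fold rise (3.79 ± 0.16, adjusted p = 7.98e-10). Tnc, the wound glycoprotein tenascin C, was 5.38, 5.73, 6.73 and 6.12 in air and 8.59, 9.55, 9.20 and 9.86 after ozone. Its groups stood apart as well, with a 9.89-fold rise (3.31 ± 0.21). Of 23 collagen genes 15 rose and 2 fell, with a median difference of 0.41. The chains of fibrillar collagen rose most: Col1a1 was 9.53, 9.72, 10.37 and 10.18 in air and 11.45, 11.43, 11.35 and 11.95 after ozone, a rise of 1.60 ± 0.16, and Col3a1 was 11.40, 11.46, 12.08 and 12.12 in air and 12.98, 12.86, 12.74 and 13.20 after ozone, a rise of 1.18 ± 0.14. In both, the female air arrays lay above the male ones. Col5a1 and Col5a2, which set fibril diameter, rose by 0.91 ± 0.13 and 1.08 ± 0.10. The falls were Col4a3 (-0.37) and Col4a5 (-0.52), chains of the alveolar basement membrane, and for Col4a5 the adjusted p was 0.0177 but 0.0694 without air M1, 0.0618 without ozone M2 and 0.0531 without ozone F2.

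Enzymes of collagen assembly rose in 10 of 17 cases and fell in 2. Lox, which cross-links collagen and elastin, rose by 0.94 ± 0.099 and Serpinh1, the collagen chaperone, by 0.98 ± 0.14. Plod2, which hydroxylates lysine for cross-links, fell by 0.66 ± 0.092. Of 28 elastic fibre and glycoprotein genes 12 rose and 3 fell. Eln, elastin, was 8.996, 8.97, 9.54 and 9.02 in air and 10.19, 10.53, 10.89 and 10.83 after ozone, a rise of 1.48 ± 0.15 without overlap. Thbs1, thrombospondin 1, Emilin1, an elastic fibre protein, and Fn1, fibronectin, rose by 1.73 ± 0.23, 1.08 ± 0.084 and 0.90 ± 0.11. Among 23 hyaluronan and proteoglycan genes Vcan, the provisional matrix proteoglycan versican, rose by 1.53 ± 0.17, Hmmr, which binds hyaluronan and also the mitotic spindle, by 1.25 ± 0.090, and Itih4 by 1.26 ± 0.18. Itih5, from the same inhibitor family as Itih4, was 7.50, 7.75, 7.11 and 7.85 in air and 6.33, 6.20, 6.19 and 5.87 after ozone and fell by 1.41 ± 0.20. The matrix proteases moved with 10 rises and 3 falls among 28. Mmp12, the macrophage elastase, rose by 1.17 ± 0.12, Mmp14, a membrane-bound collagenase, by 1.10 ± 0.082, and Mmp2, the gelatinase it activates, by 0.78 ± 0.13. The inhibitor Timp2 fell by 0.28 ± 0.052, opposite to Timp1.

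TGF-beta and BMP genes pointed different ways. Of 25 TGF-beta and activin genes 9 rose and 5 fell. The ligand Tgfb1 rose by 0.67 ± 0.090, its secreted target Tgfbi by 0.73 ± 0.18, and Fst, follistatin, which traps activin, was 7.12, 6.92, 5.98 and 6.58 in air and 7.59, 8.57, 7.63 and 7.79 after ozone and rose by 1.25 ± 0.17. Of 25 BMP genes 2 rose and 8 fell, where 14.6% of all genes fell. The receptor Bmpr2, whose loss causes inherited pulmonary hypertension, was 8.87, 8.50, 8.94 and 8.74 in air and 7.88, 7.88, 7.79 and 7.41 after ozone. It fell by 1.02 ± 0.11 (adjusted p = 1.06e-05), with ozone F2 lowest. The ligand Bmp4 and the decoy receptor Bambi fell by 0.72 ± 0.099 and 0.62 ± 0.099. Id1, a target gene of the pathway, rose by 0.93 ± 0.17, so receptors, ligands and this target did not move one way. The falls among TGF-beta genes numbered 3 without air M1 or ozone F2. Of the growth factors, the EGF receptor ligand Hbegf rose by 0.65 ± 0.13, the receptor Erbb2 by 0.43 ± 0.098 and Adam17, the protease that frees such ligands, by 0.42 ± 0.067. Igfbp3, a carrier of insulin-like growth factors, was 8.55, 8.57, 8.89 and 8.88 in air and 7.01, 6.81, 8.39 and 7.64 after ozone. It fell by 1.26 ± 0.21, with the 2 male ozone arrays lowest.

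**Figure D4:**
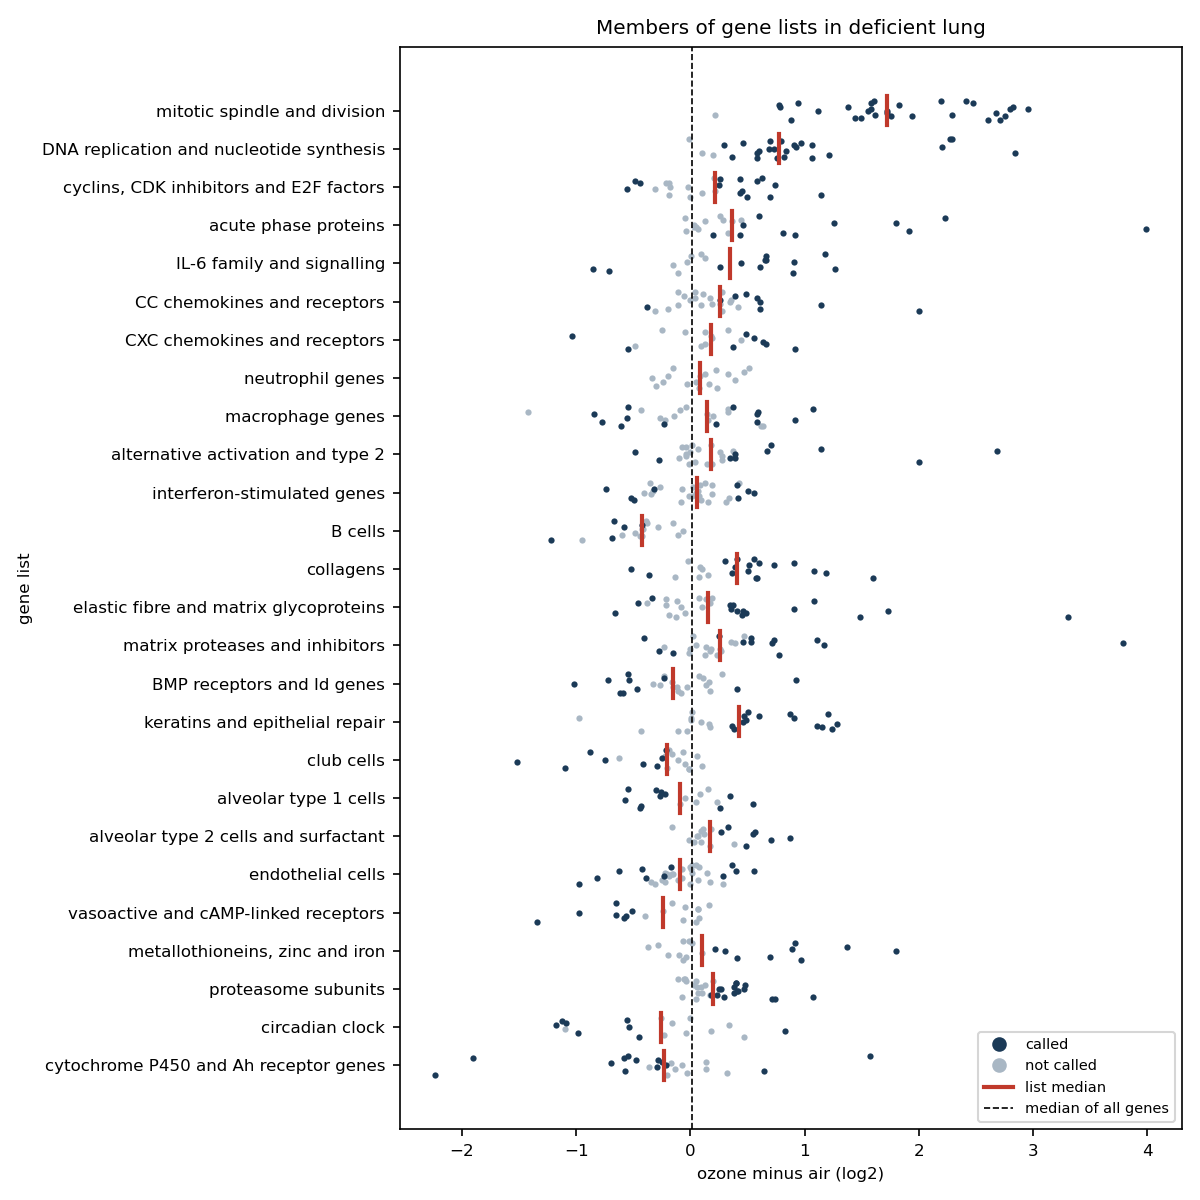
Ozone minus air (log2, horizontal axis) of every measured member (dots) of 26 gene lists (vertical axis) in deficient lung, with dark dots for called genes, pale dots for the others, a bar at each list's median and a dashed line at the median of all genes. All but 1 member of the mitotic list are dark and lie to the right, and the medians of the vasoactive, club cell, clock and B cell lists lie left of the line.

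Among epithelial genes, keratins and genes of repair rose. Of 24 in that list 14 passed, all upward, with a median of 0.42. Krt8, a keratin of simple epithelium and of alveolar cells in transition, was 11.12, 11.02, 11.35 and 11.14 in air and 12.12, 12.33, 12.22 and 12.39 after ozone, a rise of 1.11 ± 0.12. Its partner Krt18 was 10.59, 10.39, 10.77 and 10.66 in air and 11.56, 11.79, 11.80 and 11.86 after ozone, a rise of 1.15 ± 0.10, and Krt19 rose by 0.87 ± 0.11. These 3 keratins varied little within a group. Cldn4, a tight junction protein induced by injury, was 6.70, 6.90, 6.24 and 6.56 in air and 7.38, 8.33, 7.73 and 7.94 after ozone and rose by 1.24 ± 0.20. Krt5, the keratin of basal cells, overlapped (-0.43 ± 0.41, adjusted p = 0.466), and its highest value, 9.08, was on air M2, the array with squamous genes. Slc26a4, the anion exchanger pendrin of airway epithelium, was 5.38, 5.34, 6.12 and 6.09 in air and 7.23, 7.71, 8.21 and 8.69 after ozone. It rose 4.67-fold (2.22 ± 0.20), with females above males in both groups. The mucin of the cell surface, Muc1, rose by 0.87 ± 0.092, while the secreted mucins Muc5ac and Muc5b did not pass (0.13 ± 0.10 and 0.38 ± 0.20). Pigr, the receptor that carries IgA into the airway, was called at 0.95 ± 0.20 although its arrays overlapped, at 8.32, 7.82, 9.48 and 9.46 in air and 8.98, 9.60, 9.90 and 10.37 after ozone. Its levels were higher in females than in males of the same group. A second probe set of Pigr, at a mean level of 8.22, differed by 0.15 and was not called.

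Club cell and ciliated cell genes that passed the test went down. This did not hold for the whole differentiated airway. The goblet cell list held 5 called rises and 0 falls among its 20 members, where 15.8% of all genes rose. Slc26a4 and Muc1 are on that list. Of 20 club cell genes 0 rose and 8 fell, where 14.6% of all genes fell. The secretoglobin Scgb1a1 differed by -0.014 ± 0.046, a value that at the top of the scale does not show whether the gene fell. The genes of largest fall were enzymes that process foreign chemicals. Ces1f, a carboxylesterase, was 7.75, 7.57, 6.85 and 7.61 in air and 5.31, 6.58, 5.82 and 5.98 after ozone, a fall of 1.52 ± 0.22, and Fmo2, a flavin monooxygenase, was 12.90, 12.89, 12.38 and 12.22 in air and 12.04, 12.18, 11.11 and 10.67 after ozone, a fall of 1.10 ± 0.12. The groups did not overlap in either gene. Aox3, an aldehyde oxidase, and Fmo1 fell by 0.88 ± 0.12 and 0.75 ± 0.10. Cyp2f2, the P450 typical of club cells, differed by -0.22 ± 0.071 (adjusted p = 0.0310), a call that single arrays decided, with 0.0698 without air M1, 0.0511 without air M2, 0.0726 without air F2, 0.100 without ozone M1, 0.116 without ozone F2 and 0.131 without both air M2 and air F2. Of 11 ciliated cell genes 4 fell, among them Mlf1 (-0.97), Tekt2 (-0.60) and Tppp3 (-0.50), the last a tubulin-binding protein. Foxj1, the transcription factor that starts cilia formation, did not pass (0.30 ± 0.16).

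Alveolar type 1 genes moved both ways, while the type 2 genes that passed rose. Of 17 type 1 genes 3 rose and 8 fell, among them Limch1, an actin-binding protein, at 12.12, 11.91, 12.32 and 12.07 in air and 11.46, 11.41, 11.62 and 11.65 after ozone, a fall of 0.57 ± 0.080. Ager, the receptor that marks the type 1 membrane, rose slightly, by 0.26 ± 0.066. The largest of the 3 rises, 0.54, belonged to a gene that is also on the list of mesothelium markers. The falls numbered 5 without air M1. Of 19 type 2 genes 7 rose, with Ctsh, a cathepsin that processes surfactant protein, at 0.55 ± 0.11 and Cxcl15, the lung chemokine lungkine, at 0.48 ± 0.13. Over the alternatives the difference of Cxcl15 ran from 0.10 to 0.87, with a call in 21 of 22.

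Several vessel genes went down. Epas1, hypoxia-inducible factor 2 alpha, which is strongly expressed in lung endothelium, was 10.55, 10.62, 10.32 and 10.47 in air and 9.01, 9.31, 8.82 and 8.72 after ozone. Every ozone array was more than 1 unit below every air array, a fall of 1.52 ± 0.11 (adjusted p = 2.30e-07). Hif1a did not pass (-0.068 ± 0.073). Glp1r, the receptor of glucagon-like peptide 1, was 6.48, 6.59, 6.58 and 6.48 in air and 5.46, 5.12, 5.17 and 4.995 after ozone, a fall of 1.35 ± 0.13. Of 17 vasoactive and cAMP-linked genes 0 rose and 7 fell, with a median of -0.24. They include Ednrb, an endothelin receptor (-0.98), Edn1, endothelin 1 itself (-0.65), and Pde3a, which breaks down cyclic nucleotides (-0.58). A second probe set of Ednrb differed by -0.27 and was not called. Of 22 angiogenic genes 3 rose and 8 fell. Angpt1, the vessel-stabilising ligand of the receptor Tek, was 8.40, 8.10, 7.57 and 7.88 in air and 7.25, 7.21, 6.73 and 7.17 after ozone, a fall of 0.90 ± 0.11. Fgf1 and Hey1, the latter a target of Notch, fell by 0.72 ± 0.089 and 0.58 ± 0.064, and Pgf, placental growth factor, rose by 0.50 ± 0.073. The falls numbered 5 without air M1, and the rises 1 without air M1, air M2, ozone F1 or both air M2 and air F2. Of 34 endothelial genes 4 rose (11.8%) and 7 fell (20.6%), where 15.8% of all genes rose and 14.6% fell. Sox17, an arterial factor, fell by 0.81 ± 0.15, and Cdh5, the endothelial cadherin, rose by 0.56 ± 0.14. Both calls rest on the brightest probe set: a second probe set of Cdh5 differed by -0.091, and with the mean of probe sets neither gene passed (0.23, adjusted p = 0.156, for Cdh5 and -0.36, adjusted p = 0.0676, for Sox17). The falls numbered 4 without air M1, air F1 or ozone F2. Smooth muscle genes rose in 4 of 15 cases, with Acta2, smooth muscle actin, at 0.61 ± 0.13 and Smtn, smoothelin, at 0.61 ± 0.099. The rises numbered 7 without air M2.

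Few T cell and NK cell genes passed the test. Il7r, the interleukin-7 receptor, was 7.80, 7.67, 8.28 and 8.23 in air and 7.59, 7.01, 7.46 and 7.27 after ozone, a fall of 0.66 ± 0.15, while Cd3e, a chain of the T cell receptor complex, overlapped (0.048 ± 0.10). Of 20 T cell genes 1 rose and 2 fell, where 14.6% of all genes fell. The falls numbered 1 without air M1, air F1, air F2, ozone M2, ozone F2 or both air M2 and air F2. The single rise, Cd3g (0.46), kept its call in 1 of the 8 fits that leave out an array, the fit without ozone M2. Without both air M2 and air F2 Cd3g was not called. Of 18 B cell genes 5 fell, with a median of -0.43, and Ebf1, an early B cell factor also present in stromal cells, was the 1 that met every criterion for naming, with 6.94, 7.04, 6.996 and 7.25 in air and 6.59, 6.09, 6.68 and 6.13 after ozone and a fall of 0.68 ± 0.13. The count of B cell falls was 1 without air F1, air F2, ozone M2 or ozone F2, and 2 without air M1 or both air M2 and air F2. Cd79a, of the B cell receptor, overlapped (-0.28 ± 0.31). Of 19 NK and cytotoxic genes 1 fell, Klrd1, with -0.53 ± 0.18 (adjusted p = 0.0317), but 0.0514 without air M1, 0.0884 without air F1, 0.111 without air F2, 0.0866 without ozone M2 and 0.124 without ozone F2. Prf1, perforin, differed by -0.0026 ± 0.12.

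Among stress responses, metallothioneins and several antioxidant genes rose. Mt2, a metallothionein, was 8.62, 9.46, 8.33 and 8.84 in air and 9.82, 10.73, 9.997 and 10.19 after ozone, a rise of 1.37 ± 0.26, and Mt1 rose by 0.96 ± 0.16. In air, Mt2 was highest on air M2, which was still below every ozone array. Of 19 metallothionein, zinc and iron genes 9 rose. NRF2 is the factor that raises antioxidant enzymes after electrophile stress. Of 31 of its targets and other antioxidant genes 11 rose and 5 fell. Hmox1, heme oxygenase 1, was 7.90, 7.88, 7.89 and 7.95 in air and 8.71, 8.71, 8.46 and 8.54 after ozone, a rise of 0.70 ± 0.082, Gsr, glutathione reductase, rose by 0.71 ± 0.17, and Gclc, the first enzyme of glutathione synthesis, by 0.60 ± 0.092. Nqo1, a textbook NRF2 target, was instead lower, at -0.29 ± 0.086 (adjusted p = 0.0190), with an adjusted p of 0.0623 without ozone M1 and 0.112 without both air M2 and air F2. Its highest air value was on air M2, and without that array the difference was -0.18. Ephx1, an epoxide hydrolase, and Aox1, an aldehyde oxidase, fell by 0.82 ± 0.084 and 0.67 ± 0.10. The falls numbered 3 without ozone M1 or both air M2 and air F2.

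Proteasome subunits rose in 16 of 31 cases and fell in 0, by small amounts (median 0.20). Psmb5, a catalytic subunit, was 9.97, 10.16, 10.05 and 10.07 in air and 10.76, 10.78, 10.79 and 10.88 after ozone, a rise of 0.74 ± 0.057 with little spread (adjusted p = 3.75e-07). Of 29 genes of the unfolded protein response 11 rose and 5 fell. Sdf2l1, a protein of the endoplasmic reticulum, rose by 1.27 ± 0.11, while the chaperone Hspa5 did not pass (0.079 ± 0.099). The falls numbered 3 without air M1, ozone M2 or ozone F2. Immediate early genes gave 12 rises and 0 falls of 27: Junb, a subunit of AP-1, was 7.30, 7.86, 7.84 and 7.90 in air and 8.96, 8.83, 8.77 and 9.25 after ozone and rose by 1.23 ± 0.16, Dusp6, a brake on ERK kinases, by 0.95 ± 0.16, and Ccn1, a matricellular protein, by 0.83 ± 0.20. Heat shock genes gave 3 rises of 20, near the background, where 15.8% of all genes rose. Their rises numbered 5 without ozone M1 or both air M2 and air F2, and 8 without air M2.

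Several genes of the circadian clock were lower after ozone, among them repressors and output factors. Of 17 clock genes 1 rose and 7 fell, where 14.6% of all genes fell, and the rises numbered 2 without air F1, and 3 without ozone M1. Nr1d2, a repressor of the clock loop, was 11.53, 11.42, 11.62 and 11.59 in air and 11.02, 10.62, 10.12 and 9.88 after ozone. It fell by 1.13 ± 0.17 (adjusted p = 0.000171), with -0.65 in males and -1.60 in females. Per3 was 8.40, 8.76, 8.72 and 8.53 in air and 8.04, 8.02, 7.09 and 7.30 after ozone and fell by 0.99 ± 0.18, and Per2 was 9.20, 9.21, 8.54 and 8.79 in air and 8.08, 8.86, 6.77 and 7.32 after ozone and fell by 1.18 ± 0.20 although ozone M2 lay within the air range. Hlf, an output factor, fell by 1.09 ± 0.23. Nfil3, which opposes such factors, rose by 0.83 ± 0.19. Dbp, another output factor, was 10.22, 10.05, 11.58 and 11.65 in air and 10.70, 9.54, 9.39 and 9.48 after ozone. Its female air arrays stood above all others, and the difference was -0.016 in males and -2.18 in females, and over both sexes it did not pass (-1.10 ± 0.44, adjusted p = 0.0703), though it did at 0.0330 without air M2 and 0.0166 without ozone M1. Arntl, the positive arm of the clock, did not pass either (0.47 ± 0.18, adjusted p = 0.0606, and 0.0426 without ozone M1), and Per1 differed by -0.0022 ± 0.24. No source used here gives the hour at which each mouse was taken, so its part in these values was not tested. The FoxO and glucocorticoid list gave 8 falls among 21 genes and 1 rise, which numbered 0 without air M1, air F1, ozone M2, ozone F1 or ozone F2. Fbxo32, the muscle ubiquitin ligase subunit atrogin, was 8.01, 8.80, 8.03 and 8.25 in air and 7.25, 6.66, 6.82 and 6.08 after ozone, a fall of 1.57 ± 0.25. Its highest value was on air M2, the array with muscle genes, and the fall was 1.32 without air M2 and F2. The other probe set of Fbxo32 differed by -0.11 and was not called. Klf9, a glucocorticoid target, fell by 0.63 ± 0.078, but Fkbp5 and Tsc22d3, which respond to the same hormone, did not pass (0.061 ± 0.20 and 0.093 ± 0.24).

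Nuclear transcripts gave some of the larger falls. Malat1, a long noncoding RNA of nuclear speckles, was 11.79, 12.05, 12.85 and 12.99 in air and 10.74, 10.40, 11.62 and 10.74 after ozone. Both sexes fell, the females from a higher level, by 1.55 ± 0.25 overall (adjusted p = 0.000283). Its 5 probe sets were not alike, with differences from -1.99 to -0.22. Of 24 chromatin regulators 5 rose and 9 fell. Atrx, a chromatin remodeller, was 7.87, 7.61, 8.44 and 8.26 in air and 7.05, 6.85, 7.11 and 6.22 after ozone, a fall of 1.23 ± 0.19, and its 5 probe sets ranged from -1.31 to -0.079. Kdm5a, a histone demethylase, fell by 1.13 ± 0.20. Hells and Ezh2, which are read in dividing cells, rose by 1.52 ± 0.100 and 0.73 ± 0.10. Splicing factors had no common direction, with 4 rises and 4 falls of 33 (12.1% each), where 15.8% of all genes rose and 14.6% fell. Hnrnpl had the largest change of that list (1.41 ± 0.14). The falls there numbered 2 without both air M2 and air F2. Hnrnpab, among the 15 largest falls by its brightest probe set (-1.22), was called higher by 5 of its 7 probe sets, so its direction is uncertain. Of the called genes, 70 had a probe set called in the opposite direction.

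Metabolic genes moved in part with the airway enzymes. Cyp1a1, the P450 induced through the Ah receptor, was 10.38, 10.04, 10.61 and 10.90 in air and 8.62, 8.11, 6.97 and 9.29 after ozone. It had the largest fall among the genes that met the rule for naming, 4.71-fold (-2.23 ± 0.39, adjusted p = 0.000569), with ozone arrays spread over more than 2 units. The receptor Ahr itself fell by 0.58 ± 0.14, but the other target Cyp1b1 did not pass (-0.14). A second, dimmer probe set of Ahr, at a mean level of 6.26, differed by 0.065 and was not called. Of 22 P450 and Ah receptor genes 11 fell and 2 rose, and the falls numbered 6 without both air M2 and air F2, and 7 without ozone M1 or ozone F2. One of the rises was Cyp7b1, an oxysterol hydroxylase, at 6.40, 6.45, 7.04 and 6.78 in air and 8.28, 8.36, 7.76 and 8.55 after ozone, a rise of 1.57 ± 0.17. Lrat, which stores vitamin A as an ester, was 7.80, 8.68, 9.05 and 8.27 in air and 7.04, 6.22, 7.17 and 6.93 after ozone, a fall of 1.61 ± 0.37, and Rarb, a retinoic acid receptor, fell by 0.68 ± 0.16. Acaa1b, a peroxisomal thiolase, was 6.15, 5.67, 5.64 and 6.44 in air and 4.78, 4.64, 4.74 and 4.25 after ozone, a fall of 1.37 ± 0.22, and Ppara, the factor that governs such genes and a known mediator of adiponectin action, fell by 0.52 ± 0.093. The groups did not overlap in any of these 5 genes. The adiponectin receptors Adipor1 and Adipor2 differed by 0.075 and 0.0074, neither called, and Appl1, the adaptor below them, fell by 0.38 ± 0.097. Abca1, the cholesterol exporter, fell by 0.995 ± 0.090. Of 20 glycolysis genes 6 rose, with Pkm, pyruvate kinase, at 0.68 ± 0.099 and the lactate transporter Slc16a1 at 0.58 ± 0.14. Of 44 respiratory chain genes 12 rose and 3 fell by small amounts, up to 0.66 ± 0.081 for Uqcrq. The rises numbered 7 without air F1, and the falls 1 without air F2, ozone F2 or both air M2 and air F2.

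The remaining named falls were Rgs18, a regulator of G protein signalling in platelets and megakaryocytes, at 6.67, 6.75, 6.14 and 6.75 in air and 5.62, 5.23, 5.32 and 4.97 after ozone, a fall of 1.30 ± 0.26, Nebl, an actin-binding protein of muscle (-1.28), and Aspn, the matrix protein asporin (-1.21).

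The same comparison in wildtype mice was set beside that of the deficient mice to ask where the response differed. The free description of 1 wildtype ozone array, F1, names room air, against its title and its exposure field, and it was kept with ozone. In wildtype lung 19.6% of genes were called higher and 17.1% lower. Of the called genes, 2995 were called in both genotypes in 1 direction and 0 in opposite directions. The difference between the responses, tested as an interaction in limma, was called for 0 genes (0.00%), and 605 genes (4.88%) had an unadjusted p under 0.05. No gene's response was therefore shown to depend on the genotype, also not without that F1 array. The 5 genes of smallest p were Saa3, Mbd4, Kank2, Leng1 and Aaas. Saa3 rose by 3.99 ± 0.34 in deficient and 1.56 in wildtype lung, a difference of 2.43 ± 0.48 (unadjusted p = 0.000137, adjusted p = 0.673). Its wildtype levels were 7.06, 7.28, 7.68 and 7.58 in air and 8.50, 9.33, 8.91 and 9.13 after ozone. The ozone arrays lay above the air arrays in both genotypes, and all 4 deficient ozone arrays lay above all 4 wildtype ozone arrays. Mbd4, a DNA repair enzyme, differed between the responses by 0.52 ± 0.11, Kank2, a cell adhesion adaptor, by 0.48 ± 0.10, Leng1 by 0.38 ± 0.082 and Aaas, of the nuclear pore, by 0.45 ± 0.100, each with an adjusted p of 0.673. Prf1 differed by -0.0026 in deficient lung and fell by 0.76 in wildtype lung (difference 0.75 ± 0.17, adjusted p = 0.673).

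The lists were set side by side in both genotypes, whose comparisons share no arrays. The mitotic list gave 29 rises in deficient and 29 in wildtype lung, with medians of 1.72 and 1.46, and the collagen list 15 and 16. Acute phase genes gave 11 and 9 rises, with medians of 0.36 and 0.21. The NK and cytotoxic list gave 1 fall in deficient and 8 falls in wildtype lung, and 7 of its 19 genes had an unadjusted interaction p under 0.05, none of them called. The T cell list gave 2 and 8 falls, with 3 such genes, also none called. Birc5, Timp1 and Cyp1a1 changed by 2.95 ± 0.10, 3.79 ± 0.16 and -2.23 ± 0.39 in deficient and by 2.50, 2.998 and -0.95 in wildtype lung, with adjusted p of 0.983, 0.983 and 0.983 for the differences. For Cyp1a1 the wildtype change was not called (adjusted p = 0.0685).

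**Figure D5:**
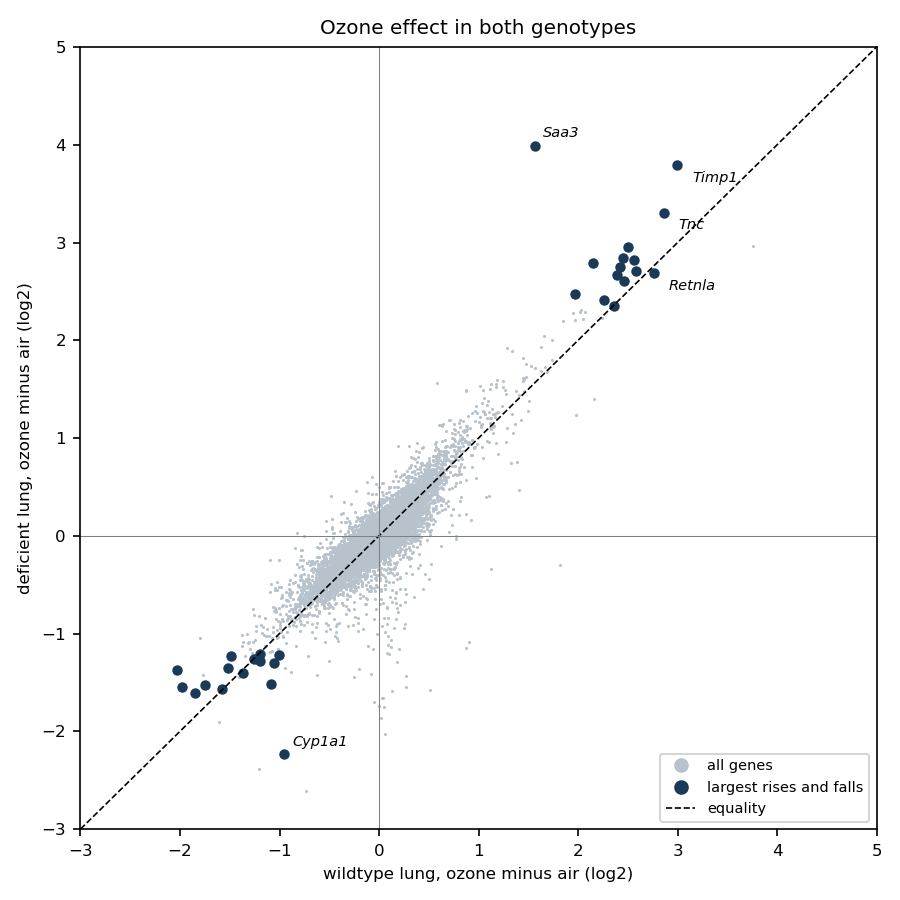
Ozone minus air (log2) in deficient lung (vertical axis) against wildtype lung (horizontal axis) for all 12393 genes (grey) and for the 15 largest rises and 15 largest falls (dark), with the line of equality dashed. Of the dark points, Saa3 lies farthest above the line.

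Within the deficient mice the response was also compared between the sexes. The difference between females and males was called for 0 genes (0.00%) by limma, with 752 at an unadjusted p under 0.05. The smallest p belonged to Cth, an enzyme of cysteine synthesis, for which ozone minus air was 0.80 in males and -0.24 in females (adjusted p of the difference = 0.108). Lrp2, Cirbp, Rasd2 and Tmem243 followed. Cirbp, the cold-inducible RNA-binding protein, whose level follows body temperature, was 7.38, 7.32, 7.80 and 7.96 in air and 8.36, 8.02, 7.62 and 7.25 after ozone. Ozone minus air was 0.84 in males and -0.44 in females for it (adjusted p of the difference = 0.330), which did not pass. With 2 mice per sex and exposure, such differences between sexes have little precision.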

How the data were processed

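Whole-lung RNA of 16 mice was measured on 1-colour Affymetrix arrays. The deposited intensity values were normalized by the authors with RMA, per the submitters' processing notes, and lie on a linear scale; no source used here names the software version. Log2 was taken with a pseudocount of 0. Of 22690 probe sets, 64 controls, 691 with several symbols and 1555 with none were left out. Each of 12393 genes was represented by its brightest probe set, and 4956 genes had more than 1. Median array intensities ran from 145.9 to 153.7; precision is limited by having 4 arrays per group.

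Limma 3.58.1 (R 4.3.3) was fitted over all 16 arrays with 4 groups and sex. The test was checked on simulated data. Genes were named where called without overlap and called in the same direction, within 1.5 times, without each of the 8 arrays and without air M2 and F2. The 15 largest rises and falls, up to 4 members per list and a set of fixed genes were taken. Cenpe, Bbc3, Crp, Apcs, Il6ra, Lifr, Il4, Il5, Il13, Ifi30, Col4a3, Col4a5, Timp2, Cd3g, Cyp1b1, Adipor1, Adipor2, Tyms, Pola1, Orc6 and Sprr1a were added after their values were seen. The comparison, the genes and the 68 lists were chosen with earlier results of these data known. Alternatives covered normalization, probe set, moderation, threshold, sex and arrays left out. Promoter sequences are from RefSeq (GRCm38.p6). Python 3.11.15 with pandas and matplotlib drew the plots.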

Additional observations from a re-analysis of the deposited data

Results flagged for a closer look

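Levels (log2 intensity) of the genes named above were searched for single arrays far from the other 3 of their group, by the gap to the nearest array divided by the range. Of 454 groups of 4, 29 held such an array (6.39%), and chance flags about 1 in 20 groups.

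On air M2, 10 genes stood apart. High levels were Acta1 13.08 (others 5.81 to 6.12), Krt4 13.03 (others 5.64 to 5.89), Sprr1a 9.36 (others 5.22 to 5.53), Krt5 9.08 (others 6.41 to 6.80), Arg1 6.99 (others 5.33 to 5.47), Mlf1 9.13 (others 8.23 to 8.38) and Pkm 11.31 (others 10.88 to 10.92), of which Acta1 and Krt4 mark muscle and squamous epithelium. Low levels were Hmmr 5.48 (others 5.67 to 5.70), Il11 5.47 (others 5.62 to 5.64) and Osmr 9.30 (others 9.48 to 9.51). On air F2, high levels were Cidec 8.54 (others 5.91 to 6.18), Ucp1 7.27 (others 4.75 to 4.80) and Slc16a1 9.16 (others 8.59 to 8.69), of which Cidec and Ucp1 mark fat.

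On ozone F2, 5 genes stood above the other ozone arrays, the cytokines Il6 6.21 (others 4.94 to 5.08) and Cxcl1 6.69 (others 5.69 to 5.85), the collagens Col1a1 11.95 (others 11.35 to 11.45) and Col5a1 9.33 (others 8.90 to 8.91), and the proliferation gene Mki67 9.91 (others 9.18 to 9.28). The part of this mouse in the differences of these genes is given beside them where it changed a call.

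The remaining levels lay on other arrays. On air M1, low levels were Il6 4.29 (others 4.42 to 4.43), Junb 7.30 (others 7.84 to 7.90) and Hnrnpl 7.19 (others 7.42 to 7.46). On air F1, the high level was Eln 9.54 (others 8.97 to 9.02) and low levels were Rgs18 6.14 (others 6.67 to 6.75) and Il17a 5.72 (others 5.88 to 5.91). On ozone F1, low levels were Lcn2 11.65 (others 12.39 to 12.47), Angpt1 6.73 (others 7.17 to 7.25) and Tgfbi 10.003 (others 10.40 to 10.48). On ozone M1 the high level was Dbp 10.70 (others 9.39 to 9.54), and on ozone M2 Mt1 11.88 (others 11.38 to 11.45).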

How the results depend on the processing

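The main fit gave 3761 calls (1954 higher, 1807 lower, 52.0% higher). Fits that left out 1 of the 8 arrays gave 2913 to 3702 calls each, not all of them calls of the main fit. Of these, 1600 to 1892 were higher and 1313 to 1810 lower, with 50.3% to 54.9% higher. A fold of at least 1.5 gave 742 calls (427 and 315), the fewest of the alternatives, and an adjusted p under 0.01 gave 2344 (1249 and 1095). Every probe set on its own gave 6183 (3026 and 3157, 48.9% higher), where more features were tested. Males alone gave 1443 (886 and 557) and females alone 2253 (1131 and 1122), with fewer samples. Leaving out air M2 and F2 turned the split to 48.6% higher, and leaving out ozone F2 as well gave 2399 calls (1239 and 1160). The same-numbered arrays did not pair, with correlations of deviations from 0.00936 to 0.350, and a replicate block gave 3699 calls (1902 and 1797, 51.4% higher). The difference between genotypes gave 0 calls with the replicate block and in every other alternative run. The difference between sexes gave 0 calls in the 4 alternatives run for it, which did not include the replicate block. The Adipoq difference was -2.11 without air F2. By the choice of probe set, Hnrnpab changed from -1.22 to 0.096 with the mean of its probe sets (adjusted p = 0.196), and Sftpc from -0.014 to 0.45 with the probe set of largest spread (adjusted p = 0.0464). That probe set of Sftpc was near the bottom of the scale, at a mean level of 4.72. The call was lost with the mean of probe sets for Cdh5 (adjusted p = 0.156) and Sox17 (0.0676), and with the probe set of largest spread for Adam17 (0.0519), Klf9 (0.0706) and H2-Ab1 (0.0720). Of 227 genes named here, 179 were called, and 117 of these were called in the same direction in every alternative. Genes near background are limited by signal, and the 4 arrays per group leave changes of small size undetected.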

Other observations

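In the plot of both genotypes a column of genes fell in deficient lung without moving in wildtype lung. These were taken, after the plot was seen, as genes lower by more than 1 (log2) in deficient lung and within 0.25 of 0 in wildtype lung. They numbered 21, with a median difference of -1.30. All 21 had their highest value of the 8 arrays on air M2, and limma called 0 of them. Of the 21, 8 are on the skeletal muscle list and 3 on the squamous list, Krtdap among them. Lce1a1, a gene of the outer layers of skin, is on neither list. Both are named here after their values were seen. Without air M2 and F2 their median difference was 0.025. A fold change taken without its error would have placed them among the largest falls after ozone.

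No clock gene was called for a difference between sexes. Hlf differed by -0.47 in males and -1.70 in females, and Nr1d2 by -0.65 and -1.60 (adjusted p of the difference = 0.468 and 0.361, 2 mice per sex and exposure).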
